A study of Homo sapiens with 12 samples.

Results

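The genes described here encode surface proteins through which a tumour cell meets immune cells and its neighbours. There are 10 of them among the 58721 genes of the count table, taken by symbol. CD274, PDCD1LG2 and CD276 encode ligands of the B7 family, CD47 a signal to macrophages and NT5E a surface enzyme. PVR and NECTIN2 belong to the nectin family, and ICAM1, VCAM1 and L1CAM are adhesion molecules of the immunoglobulin superfamily. All 10 were measured, and 9 of them were among the 21013 genes with enough counts to be tested. VCAM1 was removed by the filter on low counts.

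The study asked which genes AP-1, the dimeric transcription factor made of Jun and Fos proteins, regulates in Ewing sarcoma, a tumour of bone and soft tissue driven by an EWS-FLI1 type fusion. RNA was sequenced from EW8 and TC71, which are Ewing sarcoma cell lines grown in DMEM with serum. Both carried lentiviral vectors with c-Jun and c-Fos joined by a self-cleaving peptide sequence behind the doxycycline-inducible TRE3G promoter, and with the Tet3G transactivator behind the EF1 alpha promoter, selected with geneticin and puromycin. There were 4 groups of 3 libraries: EW8 and TC71 given doxycycline at 2000 ng/ml for 72 h, labelled AP1_overexpression, and EW8 and TC71 given the DMSO vehicle, labelled WT although they carried the same vectors. No group received doxycycline without the transgenes, so a response to doxycycline itself cannot be told apart from a response to c-Jun and c-Fos. The labels do not say that the 3 libraries of a group came from separate cultures, and p-values then measure only the spread between these libraries, which may be technical.

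Total counts ran from 42860665 to 60853649 per library. Levels are given as CPM (counts scaled to a common library size, after adjustment by the trimmed mean of M-values) and, where genes are set against each other, as RPKM (the same per kilobase of exon). A group with no more than 6 counts in any library, which is 3 read pairs, is called at the floor. That floor lay between 0.09663 and 0.1454 CPM, depending on the library, and covers counting error only. Genes counted as called when the adjusted p was below 0.05 and the log2 fold change exceeded 1 in size. JUN rose with doxycycline by 4.46 ± 0.12 in EW8 and by 5.19 ± 0.13 in TC71, and FOS by 4.87 ± 0.07 and 7.08 ± 0.08 (log2 ± SE). The FOS response was larger in TC71 by 2.21 ± 0.09 (edgeR, adjusted p = 6.41e-12). FOS was lower in TC71 than in EW8 in vehicle, by -1.65 ± 0.07, and 1.47-fold higher after doxycycline (0.55 ± 0.06). The part of FOS in the differences between the lines described here was not tested. One library stood apart: the chi-square per gene between replicates was 63.9 and 61.7 for TC71 vehicle replicate 1 against the other two of its group, and 5.4 to 11 for the other 10 pairs. Results in TC71 are therefore also given without it where a call changed. All 8 Ewing sarcoma markers examined were above the floor in every group, with summed levels of 2380 to 2990 CPM, and 2 were called lower with doxycycline in EW8 (LIPI and PAX7) and 1 in TC71 (PAX7). Of 12 leukocyte markers, 6 were at the floor in each EW8 group, 9 in TC71 vehicle and 8 in TC71 after doxycycline, and CD3E, CD3D, MS4A1 and FCGR3A were at the floor in all 4 groups. Their summed levels were 70.2 to 79 CPM in EW8 vehicle, 82.4 to 86.8 in EW8 after doxycycline, 29.9 to 32.2 in TC71 vehicle and 15.4 to 19 in TC71 after doxycycline. PTPRC, which encodes CD45, was at 65.85 and 74.91 CPM (mean) in the EW8 groups and at the floor in TC71. In bulk RNA, a change in the number of cells that express a gene cannot be told apart from a change in RNA per cell.

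Immune checkpoints are paired surface proteins that hold back an immune response. PD-L1 and PD-L2 engage PD-1 on T cells, CD47 engages SIRP alpha on phagocytes, and PVR and NECTIN2 engage the inhibitory receptor TIGIT and the activating receptor DNAM-1. CD73, the product of NT5E, makes adenosine, which dampens T cells and natural killer cells. ICAM1 and VCAM1 hold leukocytes through integrins, while L1CAM serves adhesion and migration of neural and tumour cells. Ewing sarcoma is regarded as a tumour with few infiltrating T cells.

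None of these genes was called lower in either line by edgeR or DESeq2, and none was lower at an unadjusted p under 0.05. In EW8, 4 of the 9 tested genes were called higher with doxycycline, which were CD274, PDCD1LG2, CD276 and NT5E, beside 11.4% of all tested genes called higher and 3.38% called lower. In TC71, 8 of 9 were called higher, all but NECTIN2, beside 12.3% and 3.67% of all tested genes. The median log2 fold change of the 9 genes was 0.76 in EW8 and 1.36 in TC71, and that of all tested genes was -0.03 and 0.00. By adjusted p alone, with no fold limit, 7 of 9 passed in EW8 and 8 of 9 in TC71, all higher. By that rule 21.9% of all tested genes were higher and 22% lower in EW8, and 25.1% and 20.4% in TC71. Without TC71 vehicle replicate 1 the count in TC71 was 6, since PVR and ICAM1 were no longer called. In each line, the 3 doxycycline libraries were each above every vehicle library for 8 of the 9 genes, the exception being ICAM1 in EW8 and NECTIN2 in TC71. Among all tested genes, 26.9% in EW8 and 27.6% in TC71 were separated in that way. PDCD1LG2, with no more than 2 counts in any vehicle library, passed the filter on low counts only through its doxycycline libraries. Its place among the genes called higher and among the separated genes therefore largely follows from that filter and gives no separate support. The plot of levels in each library shows these gaps, and the plot of changes sets the 2 lines beside each other.

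**Figure D1:**
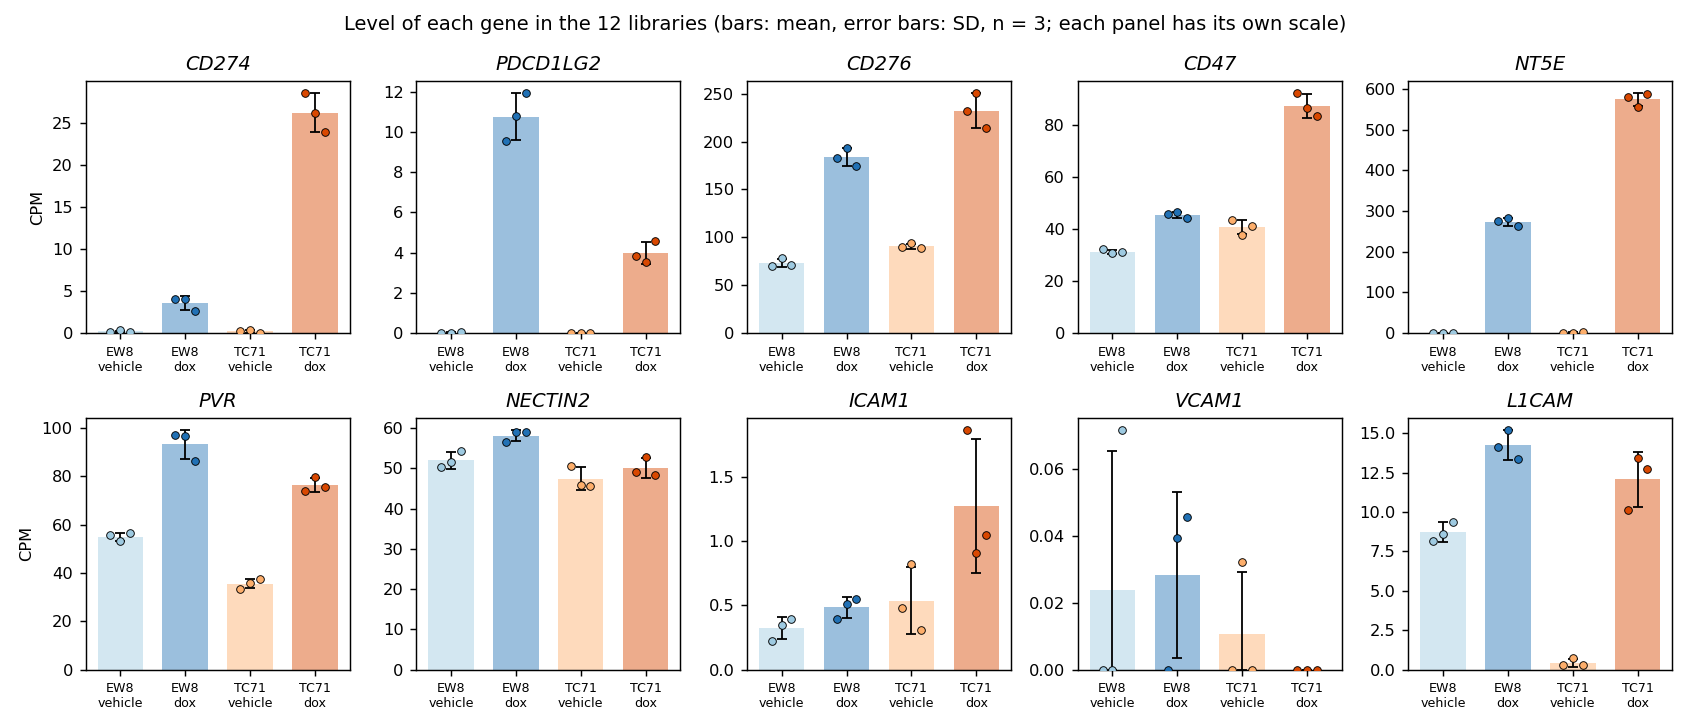
Level of each of the 10 genes in CPM (vertical axis, from 0, a scale for each gene) in EW8 and TC71 with vehicle or doxycycline; points are libraries, bars means and error bars SD (n = 3). NT5E went from under 1.4 CPM in every vehicle library to above 262 CPM in every doxycycline library, whereas NECTIN2 stayed between 45.74 and 59.05 CPM throughout and VCAM1 was at the floor in all groups.

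**Figure D2:**
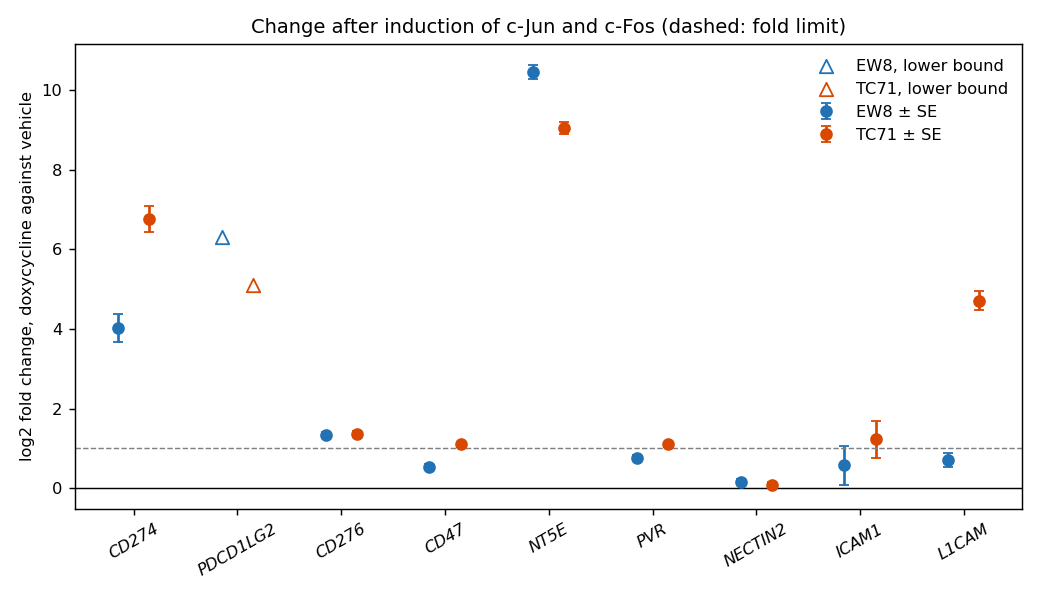
Log2 fold change of doxycycline against vehicle (vertical axis) for the 9 tested genes in EW8 (blue) and TC71 (orange), with SE; open triangles are lower bounds for PDCD1LG2, whose vehicle groups were at the floor, and the dashed line marks the fold limit of 1. NT5E lies at 10.46 in EW8 and 9.05 in TC71, and CD274 and L1CAM lie higher in TC71.

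CD274 (ENSG00000120217.13, PD-L1; hg38 chr9:5450503-5470566, plus strand) was close to the detection limit in vehicle and rose in both lines, more in TC71. The EW8 vehicle libraries held 0.1804, 0.3051 and 0.1796 CPM, and the EW8 doxycycline libraries 4.045, 4.071 and 2.626 CPM. The TC71 vehicle libraries held 0.2673, 0.3865 and 0.03882 CPM, and the TC71 doxycycline libraries 28.51, 26.12 and 23.84 CPM. The groups did not overlap in either line, and replicate 3 was the lowest of the induced libraries in each. The mean rose 16.2-fold in EW8 (log2 4.02 ± 0.35 SE, edgeR quasi-likelihood test, Benjamini-Hochberg adjusted p = 2.89e-08) and 113-fold in TC71 (6.76 ± 0.33, adjusted p = 5.46e-12). The vehicle values rest on 2 to 24 counts, which limits the precision of both folds. With 1 library left out the TC71 value ran from 6.29 to 7.38, the latter without TC71 vehicle replicate 2. The response was larger in TC71 by 2.74 ± 0.58 on the log2 scale (interaction, adjusted p = 0.00225), and by 2.28 to 3.37 with 1 library left out. The lines did not differ detectably in vehicle (0.12, adjusted p = 0.86), and after doxycycline the mean was 7.3-fold higher in TC71 (2.86 ± 0.24, adjusted p = 8.44e-09).

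PDCD1LG2 (ENSG00000197646.7, PD-L2; chr9:5510570-5571254, plus strand), which lies next to CD274, went from no more than 2 counts to a clear signal in both lines. Of the 6 vehicle libraries, EW8 replicate 3 held 2 counts (0.03593 CPM) and the other 5 held 0. The EW8 doxycycline libraries held 9.558, 10.81 and 11.92 CPM, and the TC71 doxycycline libraries 3.83, 3.537 and 4.596 CPM. Against the floor, the gene was at least 79.5-fold higher in EW8 (edgeR, adjusted p = 1.98e-11) and at least 34.2-fold higher in TC71 (adjusted p = 1.35e-10). Whether these increases differed between the lines could not be judged, because both start from the floor. Induced TC71 cells held less of it than induced EW8 cells, by -1.43 ± 0.22 on the log2 scale (adjusted p = 2.43e-05), or 2.7-fold.

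The 2 ligands of PD-1 were thus found in opposite order in the induced lines. Per length, PDCD1LG2 exceeded CD274 by 4.1, 4.61 and 7.88 times in the EW8 doxycycline libraries (5.53 ± 2.05, SD, n = 3). In TC71 it was CD274 that exceeded PDCD1LG2, by 4.29, 4.25 and 2.99 times. The log2 ratios did not overlap and differed by 4.33. This ratio was not a planned comparison. For 3 against 3 libraries that do not overlap, an exact two-sided permutation test can only give p = 0.1, so it adds no support. The plot of both ligands by library shows the EW8 and TC71 doxycycline libraries on opposite sides of equality.

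**Figure D3:**
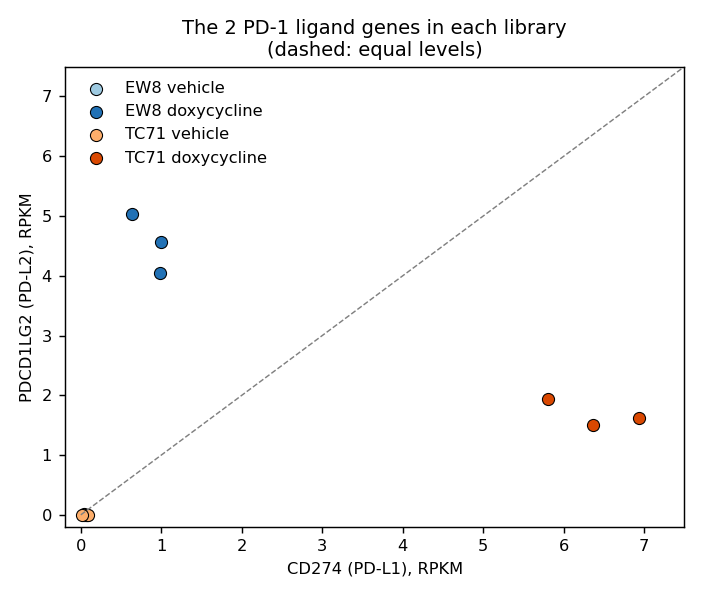
RPKM of CD274 (horizontal axis) and PDCD1LG2 (vertical axis) in each of the 12 libraries, coloured by group, with a dashed line of equal levels; vehicle libraries sit at the origin. The EW8 doxycycline libraries lie at 0.6393 to 0.991 RPKM of CD274 and 4.042 to 5.04 of PDCD1LG2, and the TC71 doxycycline libraries at 5.804 to 6.939 and 1.495 to 1.943.

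CD276 (ENSG00000103855.17, B7-H3; chr15:73683966-73714518, plus strand), a B7 family protein found on many solid tumours, was abundant in vehicle and rose by a like amount in both lines. Vehicle-treated EW8 held 70.46, 78 and 70.56 CPM, and EW8 doxycycline libraries 182.8, 193.8 and 174.9 CPM. Vehicle-treated TC71 held 89.48, 93.63 and 88.87 CPM, and TC71 doxycycline libraries 232, 250.7 and 214.3 CPM. All vehicle libraries lay below all doxycycline libraries. The rise was 2.52-fold in EW8 (1.33 ± 0.07, edgeR, adjusted p = 8.67e-12) and 2.56-fold in TC71 (1.36 ± 0.07, adjusted p = 5.11e-12). The responses differed by 0.03 ± 0.09 (adjusted p = 0.914), a difference whose sign changed under 11 of 18 alternatives. TC71 was above EW8 in vehicle by 0.31 ± 0.07 (adjusted p = 0.000403) and after doxycycline by 0.34 ± 0.06 (adjusted p = 0.000163), both under the fold limit.

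CD47 (ENSG00000196776.15; chr3:108043094-108091862, minus strand), known as the "don't eat me" signal, rose in both lines and passed the fold limit only in TC71. EW8 vehicle libraries held 32.23, 30.66 and 31.22 CPM, and EW8 doxycycline libraries 46.04, 46.48 and 44.23 CPM. TC71 vehicle libraries held 43.46, 37.93 and 41.18 CPM, and TC71 doxycycline libraries 92.45, 86.63 and 83.47 CPM. The replicates lay close together and the groups did not overlap. The rise was 1.45-fold in EW8 (0.54 ± 0.07, edgeR, adjusted p = 4.25e-06) and 2.14-fold in TC71 (1.10 ± 0.07, adjusted p = 2.15e-10). The response was larger in TC71 by 0.56 ± 0.10 (interaction, adjusted p = 0.000406), and after doxycycline TC71 stood above EW8 by 0.94 ± 0.07 (adjusted p = 1.01e-09).

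NT5E (ENSG00000135318.11, CD73; chr6:85449584-85495791, plus strand), which converts extracellular AMP to adenosine, showed the largest fold change in both lines among the genes above the floor in vehicle. In EW8, the vehicle libraries held 0.2707, 0.2179 and 0.1078 CPM, from 6 to 12 counts each, and EW8 doxycycline libraries 276.6, 281.8 and 262.2 CPM. In TC71, the vehicle libraries held 1.298, 0.6764 and 1.339 CPM, and TC71 doxycycline libraries 579.9, 556.7 and 586.6 CPM. The gene was barely detected without doxycycline and was, per length, the highest of the 10 with it. The mean rose 1380-fold in EW8 (10.46 ± 0.17, edgeR, adjusted p = 1.81e-18) and 520-fold in TC71 (9.05 ± 0.14, adjusted p = 8.65e-19). The EW8 fold rests on 6 to 12 counts per vehicle library, and its SE, taken from the test statistic, may be too small. The log2 response was smaller in TC71, by -1.41 ± 0.33 (interaction, adjusted p = 0.00492), beside a higher vehicle level there (5.56-fold; 2.48 ± 0.30, adjusted p = 8.12e-07). After doxycycline TC71 was still the higher line, 2.1-fold (1.07 ± 0.09, adjusted p = 6.46e-09). Without TC71 doxycycline replicate 3 this last difference was 0.99, just under the fold limit.

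PVR (ENSG00000073008.14, CD155; chr19:44643798-44663583, plus strand) rose in both lines. EW8 vehicle libraries held 55.53, 53.2 and 56.39 CPM, and EW8 doxycycline libraries 96.87, 96.38 and 86.23 CPM. TC71 vehicle libraries held 33.47, 35.88 and 37.46 CPM, and TC71 doxycycline libraries 73.98, 79.7 and 75.42 CPM. The groups did not overlap, and EW8 was the higher line in both conditions. The rise was 1.69-fold in EW8 (0.76 ± 0.07, edgeR, adjusted p = 3.1e-08) and 2.14-fold in TC71 (1.10 ± 0.07, adjusted p = 1.66e-10). Without TC71 vehicle replicate 1 the TC71 value was 0.99, and the difference between the responses went from 0.34 ± 0.09 (adjusted p = 0.0156) to 0.19 (adjusted p = 0.142). That difference failed the test under 6 of 18 alternatives, with adjusted p from 0.0819 to 0.195. TC71 was lower than EW8 by -0.63 ± 0.07 in vehicle (adjusted p = 1.94e-07) and by -0.29 ± 0.07 after doxycycline (adjusted p = 0.00099).

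NECTIN2 (ENSG00000130202.9, CD112; chr19:44846175-44889228, plus strand), which shares the receptors TIGIT and DNAM-1 with PVR, did not pass the test. Levels in EW8 vehicle were 50.25, 51.54 and 54.25 CPM, and EW8 doxycycline libraries 56.46, 59.05 and 58.92 CPM. Levels in TC71 vehicle were 50.71, 45.8 and 45.74 CPM, and TC71 doxycycline libraries 49.09, 52.84 and 48.28 CPM. The EW8 groups lay apart by a small margin and the TC71 groups overlapped. The log2 fold change was 0.16 ± 0.07 in EW8 (edgeR, adjusted p = 0.0639) and 0.08 ± 0.07 in TC71 (adjusted p = 0.379), the latter turning to -0.02 when libraries were scaled by their size alone. Without TC71 vehicle replicate 1 the EW8 value was 0.21 (adjusted p = 0.00706), far below the fold limit.

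ICAM1 (ENSG00000090339.8; chr19:10270835-10286615, plus strand), a ligand of the leukocyte integrins LFA-1 and Mac-1, was low in all groups. EW8 vehicle libraries held 0.2255, 0.3487 and 0.3952 CPM, and EW8 doxycycline libraries 0.3938, 0.5138 and 0.5481 CPM. TC71 vehicle libraries held 0.4774, 0.8213 and 0.3105 CPM, and TC71 doxycycline libraries 1.867, 0.9081 and 1.047 CPM. The EW8 groups overlapped narrowly, and in TC71 doxycycline replicate 1 lay well above the other two. The log2 fold change was 0.57 ± 0.49 in EW8 (edgeR, adjusted p = 0.386) and 1.23 ± 0.46 in TC71 (adjusted p = 0.0359, 2.37-fold). The call in TC71 was lost under 6 of 19 alternatives, among them leaving out TC71 doxycycline replicate 1 (0.81, adjusted p = 0.23), TC71 vehicle replicate 1 (1.09, adjusted p = 0.0986) or TC71 vehicle replicate 3 (0.96, adjusted p = 0.13). Of the exon bases of ICAM1, 22% are shared with ICAM4-AS1 on the other strand, and reads there were not assigned to either gene.

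VCAM1 (ENSG00000162692.11; chr1:100719742-100739045, plus strand), a ligand of the integrin alpha 4 beta 1, was at the floor in all 4 groups. The highest value was 4 counts (0.07185 CPM), in EW8 vehicle replicate 3. EW8 doxycycline libraries held 0, 2 and 2 counts, TC71 vehicle libraries 0, 2 and 0, and all TC71 doxycycline libraries 0. A change that stayed within the floor, which was at most 0.1454 CPM, was not detectable at this depth.

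L1CAM (ENSG00000198910.13; chrX:153861514-153886174, minus strand) had the largest difference in response between the lines among the genes above the floor in vehicle. The vehicle libraries of EW8 held 8.142, 8.63 and 9.377 CPM, and EW8 doxycycline libraries 14.14, 15.22 and 13.38 CPM. Those of TC71 held 0.3055, 0.7408 and 0.2911 CPM, and TC71 doxycycline libraries 10.11, 13.43 and 12.7 CPM. The gene was low only in TC71 vehicle, and the doxycycline libraries of the 2 lines overlapped. It rose 1.63-fold in EW8 (0.71 ± 0.18, edgeR, adjusted p = 0.00383), under the fold limit, and 27.1-fold in TC71 (4.71 ± 0.24, adjusted p = 1.23e-11). The response was larger in TC71 by 4.0 ± 0.30 (interaction, adjusted p = 2.89e-08), by 3.68 without TC71 vehicle replicate 1 and by 4.62 without TC71 vehicle replicate 2. In vehicle TC71 was 19.6-fold lower (-4.24 ± 0.24, adjusted p = 3.25e-11), while after doxycycline the lines differed by -0.24 ± 0.18 (adjusted p = 0.267). Without TC71 vehicle replicate 2, the highest of its group, the TC71 response was 5.33 and the difference in vehicle -4.86.

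Between the lines, 3 of the 9 responses were called different: CD274 and L1CAM larger in TC71 and NT5E smaller, where 4.18% and 2.87% of all tested genes were called in these directions. In vehicle, NT5E was called higher and L1CAM lower in TC71, beside 11.6% and 18.9% of all tested genes. After doxycycline, CD274, NT5E and ICAM1 were called higher in TC71 and PDCD1LG2 lower, beside 12.6% and 18.4%. By adjusted p alone, 4 responses were larger in TC71 and 1 smaller (12.2% and 7.07% of all tested genes). By the same rule 3 genes were higher and 2 lower in TC71 vehicle (28.2% and 33.5%), and 5 higher and 3 lower after doxycycline (30.2% and 32.3%). The ICAM1 difference (1.39 ± 0.47, edgeR, adjusted p = 0.0149) was lost without TC71 doxycycline replicate 1 (0.95, adjusted p = 0.127) or EW8 doxycycline replicate 1 (1.26, adjusted p = 0.0564).

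Set against each other per length, the genes changed order with doxycycline. In EW8 vehicle, PVR led with 15.64 ± 0.469 RPKM (SD, n = 3), and NECTIN2 (13.88) and CD276 (13.17) followed with overlapping libraries. CD47 (3.814) and L1CAM (1.199) came next, then ICAM1, CD274 and NT5E at 0.08719, 0.05397 and 0.04385 RPKM, neighbours whose libraries overlapped. In EW8 after doxycycline, NT5E led with 60.34 ± 2.24 RPKM, before CD276 (33.16), PVR (26.47), NECTIN2 (15.52), CD47 (5.542), PDCD1LG2 (4.551), L1CAM (1.96), CD274 (0.8717) and ICAM1 (0.1309), with no overlap between neighbours. NT5E had moved from the 7.8th to the 96.6th percentile of the RPKM of all tested genes.

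In TC71 vehicle the order was CD276 with 16.36 ± 0.468 RPKM, NECTIN2 (12.66), PVR (10.12) and CD47 (4.967), followed by NT5E (0.2437), ICAM1 (0.1447), L1CAM (0.06132) and CD274 (0.0562), each of the last 4 overlapping the next. After doxycycline it was NT5E with 126.7 ± 3.46 RPKM, at the 98.4th percentile, then CD276 (41.92), PVR (21.7), NECTIN2 (13.36), CD47 (10.64), CD274 (6.367), PDCD1LG2 (1.686), L1CAM (1.661) and ICAM1 (0.3437). PDCD1LG2 and L1CAM did not differ beyond their spread. CD276, PVR, NECTIN2 and CD47 kept levels above 3.7 RPKM in every library, as the plot of order by group shows.

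**Figure D4:**
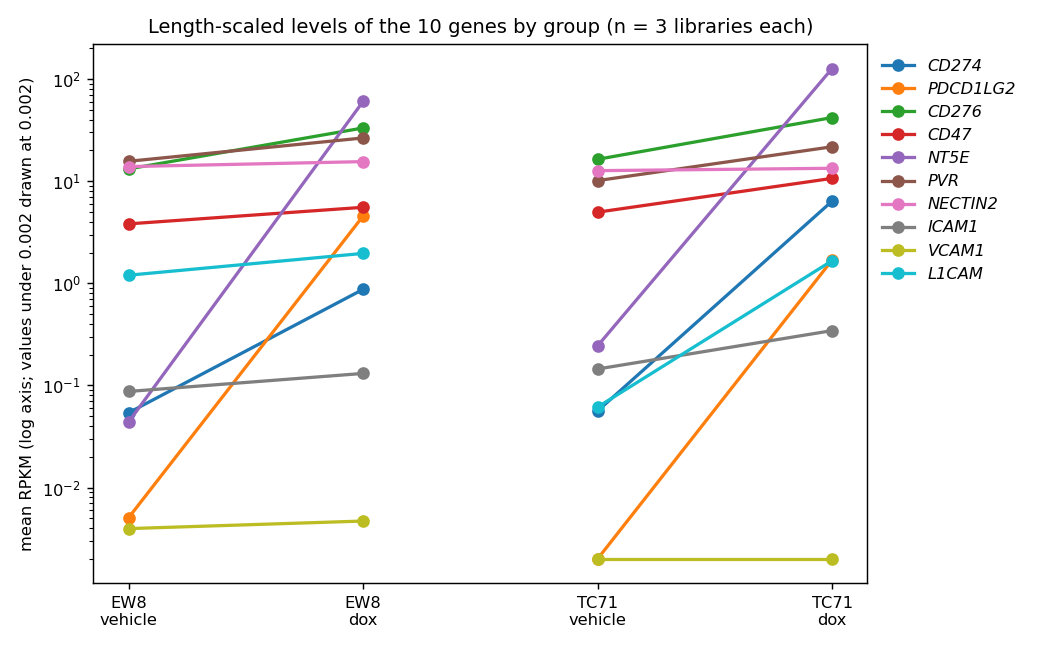
Mean RPKM (log axis) of the 10 genes in each group of 3 libraries, with values under 0.002 drawn at 0.002 and lines joining vehicle to doxycycline within a line. NT5E climbs from 0.04385 to 60.34 RPKM in EW8 and from 0.2437 to 126.7 in TC71 and crosses the other genes, while NECTIN2 stays between 12.66 and 15.52.

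The letters before the start sites were examined for 5 motifs in RefSeq promoter windows of GRCh38.p14, which run from 250 bases before to 50 bases after each start. Of the 10 genes, 9 had an entry, with 11 windows. The AP-1 site TGACTCA was in none of them, against 4.95% of all 35116 windows. The GGAA repeat GGAAGGAA, of the type that EWS-FLI1 binds, was also in none, against 3.67%. The CRE-type site TGACGTCA, which some AP-1 and ATF dimers bind, was in the window of NECTIN2 only (1.85% of all). The GAS-type site TTCNNNGAA, an element of cytokine-responsive promoters, was found for CD274 and ICAM1 (7.66% of all), and the NF-kB consensus for VCAM1 (5.91% of all). Both strands were searched, and no match says only that these letters are not in this window. Stretches of the CD274 and VCAM1 windows are shown because CD274 differed most between the induced lines among the ligands of PD-1, and because VCAM1 alone gave no signal. Capitals mark the GAS-type site of CD274, which begins 125 bases before its start (chr9:5450387-5450455, plus strand), and the NF-kB consensus of VCAM1, which begins 62 bases before its start (chr1:100719650-100719719, plus strand).
CD274: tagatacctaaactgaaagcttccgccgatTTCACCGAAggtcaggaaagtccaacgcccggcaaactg
VCAM1: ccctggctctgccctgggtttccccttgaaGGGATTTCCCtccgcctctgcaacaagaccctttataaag

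Genes within 100 kb of the members were compared with them. CD274 and PDCD1LG2 are each other's neighbours, and the other tested genes beside them were not called higher: PLGRKT gave 0.05 in EW8 (edgeR, adjusted p = 0.81) and 0.35 in TC71 (adjusted p = 0.0554), and RIC1 gave -0.53 in EW8 (adjusted p = 8.68e-06) and 0.01 in TC71. LINC02535, a non-coding RNA 59398 bases from NT5E (chr6:85387219-85390186, minus strand), was at the floor in EW8 vehicle and was at least 39-fold higher with doxycycline. In TC71 it rose 36.3-fold (5.16, adjusted p = 1.24e-10), from 0.1566 ± 0.0399 to 5.691 ± 0.409 CPM (SD, n = 3). PLXNB3, a plexin receptor gene 82168 bases from L1CAM, rose 6.45-fold in EW8 (2.69 ± 0.29, adjusted p = 5.28e-07) and 28.2-fold in TC71 (4.75 ± 0.36, adjusted p = 3.33e-09). Its response, like that of L1CAM, was larger in TC71 (2.07 ± 0.47, adjusted p = 0.00411). PLXNB3 was near the floor in TC71 vehicle, at 0.1337 ± 0.0756 CPM (SD, n = 3). That limits the precision of its TC71 fold and of the difference in response. BCL3, which lies between PVR and NECTIN2 and encodes a partner of NF-kB, went from 5.466 ± 1.1 to 27.1 ± 2.29 CPM in EW8 (2.31 ± 0.22, adjusted p = 1.09e-07) and gave 0.51 ± 0.23 in TC71 (adjusted p = 0.0815). BCAM, an adhesion molecule gene 24754 bases from NECTIN2, was lower in both lines (-1.16 ± 0.14 and -1.43 ± 0.16). LINC01215, near CD47, and ENSG00000285525, near VCAM1, were at the floor in EW8 vehicle and in both TC71 groups. With doxycycline they were at least 17.6-fold and 6.24-fold higher in EW8. In TC71, INSYN1, near CD276, was called higher (1.03 ± 0.33) and SRPK3, near L1CAM, lower (-1.66 ± 0.63). CEACAM19, which overlaps PVR, was called in neither line. Of the 8 tested neighbours of ICAM1, none was called by edgeR or DESeq2 in either line. Several of them were left uncalled through the fold limit alone. In EW8, 4 of these neighbours fell at an edgeR adjusted p under 0.05 (5 before adjustment), and none rose. For TC71 the same rule gave 5 that fell, while ICAM5 rose (0.66 ± 0.14, adjusted p = 0.000828). Among all tested genes, 22% fell and 21.9% rose by that rule in EW8, against 20.4% and 25.1% in TC71. Over all members, 5 of 40 tested neighbours were called higher and 1 lower in EW8, and 4 higher and 2 lower in TC71. These shares are near those of all tested genes, which were 11.4% higher and 3.38% lower in EW8, and 12.3% and 3.67% in TC71. CEACAM22P, near PVR and counted as higher in TC71, was at the floor in both groups of that line. LINC01215, LINC02535 and ENSG00000285525 had vehicle means of 0 to 0.1566 CPM and passed the filter on low counts only through doxycycline libraries. Their place among the neighbours called higher therefore largely follows from that filter and gives no separate support.

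The gene most like each member over the 12 libraries was named by the highest Pearson r of log2(CPM + 0.5), and these likenesses are descriptions. It was SEMA7A for CD274 (r = 0.995), TMEM52B for PDCD1LG2 (0.998), LMNA for CD276 (0.997), CLMP for CD47 (0.997) and SH3RF1 for NT5E (0.999). It was UAP1L1 for PVR (0.995), DHRS12 for NECTIN2 (0.956), MIDEAS for ICAM1 (0.945) and COL6A2 for L1CAM (0.994). These values describe 4 groups of 3 libraries, so the same group differences fill every pair. The number of genes with r of 0.95 or more ran from 428 for NT5E to 96 for L1CAM among the members other than NECTIN2 (1 gene) and ICAM1 (0 genes).

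Gene lists around the members showed which relatives and partners moved beside them. Every list below is to be set beside all tested genes, of which 11.4% were called higher and 3.38% lower in EW8. In TC71 these shares were 12.3% and 3.67%, and the all-gene medians were -0.03 in EW8 and 0 in TC71. Among other B7 family members and butyrophilins, 2 of 9 tested genes were called higher in each line and none lower, with medians of -0.07 in EW8 and -0.05 in TC71. They were CD86, a costimulatory ligand, and VSIR, which encodes the checkpoint protein VISTA. VSIR went from 1.234 ± 0.363 to 2.501 ± 0.0466 CPM in EW8 (1.01 ± 0.28, edgeR, adjusted p = 0.00727) and was at least 44-fold higher in TC71, where vehicle was at the floor. None of the 4 tested nectins and nectin-like genes was called by edgeR or DESeq2 in either line. By adjusted p alone, with no fold limit, 3 were higher and 1 lower in EW8, and 2 were lower in TC71. By that rule 21.9% of all tested genes were higher and 22% lower in EW8, and 25.1% and 20.4% in TC71.

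Among other inhibitory and costimulatory ligands, 3 of 12 were called higher in EW8 and 5 higher and 1 lower in TC71, with medians of 0.13 and 0.41. CD24, a ligand of Siglec-10 on macrophages, rose by 2.67 ± 0.26 in EW8 (edgeR, adjusted p = 1.23e-07) and by 6.97 ± 0.36 in TC71 (adjusted p = 1.26e-11). The TC71 vehicle level of CD24 was 0.09187 ± 0.0829 CPM (SD, n = 3), near the floor, which limits the precision of the TC71 value. CD24 has near-identical copies elsewhere in the genome, and its counts are uncertain for that reason. LGALS3, which encodes galectin-3, rose by 1.64 ± 0.14 and 2.51 ± 0.14, and CD70, the ligand of CD27, by 1.43 ± 0.17 and 1.98 ± 0.21.

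Of the adhesion molecules of the immunoglobulin superfamily, 5 of 18 were called higher and 3 lower in EW8, and 7 higher and 1 lower in TC71, with medians of 0.21 and 0.47. ALCAM, the ligand of CD6, resembled L1CAM in having its low level in TC71 vehicle: it went from 70.89 ± 3.4 to 173.7 ± 2.14 CPM in EW8 and from 17.14 ± 2.29 to 211.9 ± 3.48 CPM in TC71. Its response was larger in TC71 by 2.33 ± 0.10 (edgeR interaction, adjusted p = 2.11e-11). NRCAM, of the L1 family, rose by 1.54 ± 0.12 in EW8 and 1.66 ± 0.12 in TC71, and JAM2 by 1.28 ± 0.14 and 1.59 ± 0.15. F11R, another junctional adhesion molecule gene and chosen after its values were seen, rose by 0.38 ± 0.09 in EW8 and by 2.24 ± 0.10 in TC71. PECAM1 belongs to this list and to that of 6 endothelial markers, of which 4 were called higher in EW8 and 5 in TC71. The summed level of those markers was 7.87 to 9.37 CPM in EW8 vehicle and 48 to 53.4 after doxycycline, and 2.25 to 2.83 and 10.6 to 12.7 CPM in TC71. VWF was at the floor in EW8 vehicle, and PECAM1, CDH5, VWF and TEK in TC71 vehicle. The part of these markers in the adhesion results was not tested.

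Receptors and binding partners of the members were called higher in 8 of 17 cases in EW8 and 7 of 17 in TC71, with 1 lower in TC71, and the medians were 1.64 and 1.55. Integrin genes were prominent among those called in both lines: ITGAV rose by 2.66 ± 0.07 in EW8 and 2.34 ± 0.07 in TC71, ITGA5 by 2.63 ± 0.06 and 2.31 ± 0.06, and ITGB3 by 2.83 ± 0.56 and 2.97 ± 0.55. Vehicle means were low for ITGB3 (0.1502 CPM in EW8, 0.1607 in TC71) and for ITGAM (0.2087 and 0.04735). Both passed the filter on low counts only through doxycycline libraries, so their calls give no separate support. ITGB2 was not called, at -0.07 in EW8 and -0.51 in TC71 (edgeR, adjusted p = 0.000482). The alpha v, alpha 5 and beta 3 chains take part in integrins that L1CAM can bind. Larger changes were seen in TC71 for NRP1, a co-receptor that L1CAM binds, which went from 19.03 ± 2.35 to 280.2 ± 2.33 CPM there (3.88 ± 0.08, edgeR, adjusted p = 3.45e-17) and gave 0.15 ± 0.07 in EW8 (adjusted p = 0.119). EGFR rose by 2.75 ± 0.14 in EW8 and was at least 3.23-fold higher in TC71, where vehicle was at the floor. NRP1 and EGFR were chosen after their values were seen. SIRPA, the receptor of CD47, was at 28.81, 42.49, 248 and 249.2 CPM (group means in EW8 vehicle, EW8 doxycycline, TC71 vehicle and TC71 doxycycline). Of 11 genes that act on the stability or processing of the members, FURIN, a protease of the secretory pathway, was called higher in both lines (2.11 ± 0.07 and 2.32 ± 0.07) and no other was called by edgeR or DESeq2. CMTM6, which keeps PD-L1 at the surface, gave 0.09 in EW8 and 0.38 in TC71.

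In the extracellular adenosine pathway around NT5E, 4 of 14 tested genes were called higher in EW8, and 5 higher and 2 lower in TC71, with medians of -0.03 and 0.83. ENTPD1, which encodes CD39 and makes the AMP that CD73 uses, went the other way from NT5E. It fell in TC71 from 8.626 ± 0.22 to 3.886 ± 0.832 CPM (-1.15 ± 0.15, edgeR, adjusted p = 4.07e-06) and in EW8 from 13.73 ± 1.46 to 9.647 ± 0.393 CPM (-0.51 ± 0.14, adjusted p = 0.00632). ENPP1, which also makes AMP from ATP, went from 67.58 ± 1.96 to 200.9 ± 7.89 CPM in TC71 (1.57 ± 0.08, adjusted p = 8.19e-12) and gave 0.03 ± 0.08 in EW8 (adjusted p = 0.795). ENTPD1 and ENPP1 were chosen after their values were seen. DPP4, which anchors adenosine deaminase at the surface, rose by 1.46 ± 0.07 in EW8 and 4.22 ± 0.10 in TC71. ADORA2B, an adenosine receptor gene, rose by 1.10 ± 0.15 and 1.66 ± 0.15, and ADK, the kinase that returns adenosine to AMP inside the cell, by 1.20 ± 0.07 and 1.07 ± 0.07.

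The interferon gamma axis is known to control CD274, with IRF1 as one of its transcription factors. Of the 9 genes examined from it, 3 were called higher in each line (IRF1, SOCS1 and SOCS3), with none lower and medians of 0.63 in EW8 and 0.59 in TC71. By adjusted p alone all 9 were higher in EW8, while TC71 had 7 higher and 1 lower. By that rule 21.9% of all tested genes were higher and 22% lower in EW8, and 25.1% and 20.4% in TC71. IRF1 went from 2.013 ± 0.774 to 15.26 ± 1.04 CPM in EW8 (2.91 ± 0.22, edgeR, adjusted p = 3.42e-09) and from 3.011 ± 0.532 to 8.57 ± 0.684 CPM in TC71 (1.51 ± 0.21, adjusted p = 8.17e-06). Its response was smaller in TC71 by -1.40 ± 0.30 (edgeR interaction, adjusted p = 0.00233). The part of IRF1 in the response of CD274 was not tested. SOCS3, a feedback inhibitor of cytokine signalling, rose by 3.65 ± 0.13 and 2.30 ± 0.13, and SOCS1 by 1.81 ± 0.47 and 3.33 ± 0.50. The plot of calls by gene list gives the counts for all lists.

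**Figure D5:**
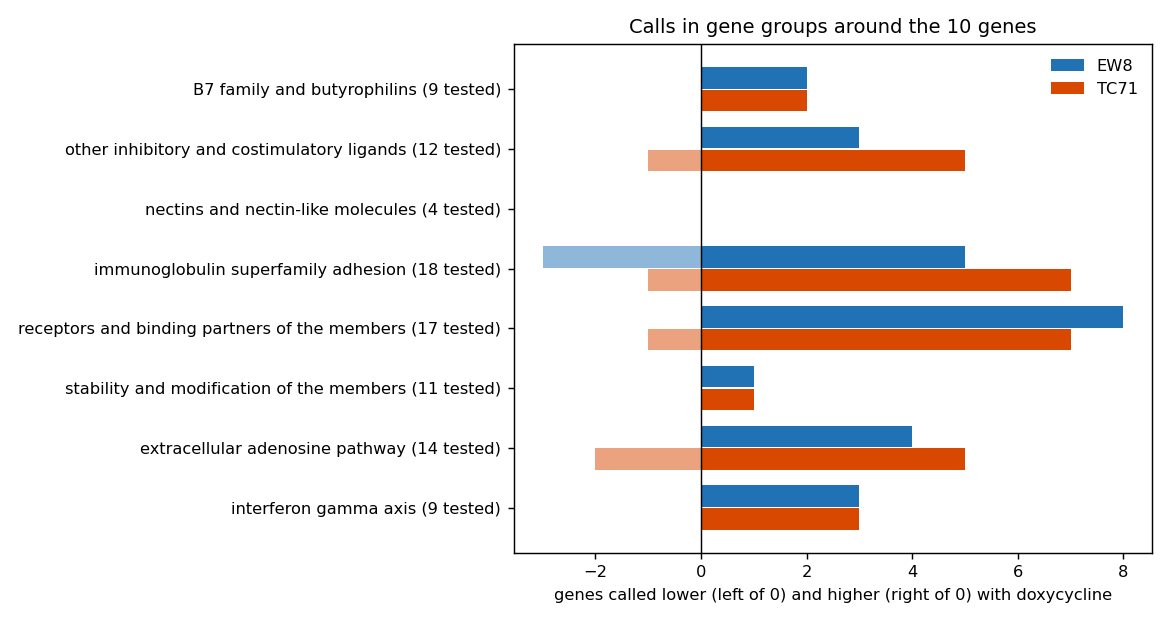
Number of genes called higher (right of 0) and lower (left of 0, paler) with doxycycline in 8 gene lists around the members, in EW8 (blue) and TC71 (orange), with the number tested beside each name. Receptors and binding partners had 8 of 17 called higher in EW8 and 7 of 17 in TC71, and nectins and nectin-like molecules had none. Of all tested genes, 11.4% were called higher and 3.38% lower in EW8, and 12.3% and 3.67% in TC71.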

How the data were processed

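RNA-seq of polyadenylated RNA from 12 libraries in 4 groups of 3 was used. The authors checked reads with FastQC, aligned them to hg38 (GRCh38) with STAR and assigned them to exons of GENCODE 29 genes with featureCounts 2.0.1, and the deposited values were raw counts per gene. Per the file headers, the counter was run without options for pairs, strand, multi-mapped or overlapping reads, so mates were counted singly, strand was not used, and reads on several places or genes were dropped. The deposited exon length served for RPKM. Symbols were matched for 58207 of 58721 genes (99.1%).

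The filterByExpr rule kept 21013 genes, which held 99.95% of counts. edgeR 4.0.16 in R 4.3.3 fitted 1 quasi-likelihood model to all 12 libraries, with TMM scaling, 4 group levels and a common dispersion of 0.0143. Adjusted p-values are Benjamini-Hochberg values over all tested genes. Each SE is the size of the edgeR log2 fold change divided by the square root of the F statistic of its test. It may be too small where a large fold rests on few counts. The limits on p and fold are those of the study, whose test, DESeq2 (here 1.42.0), was an alternative. The other alternatives were median-ratio size factors, library size alone, no filter, at least 10 counts in every library, no fold limit, a replicate block, each line fitted on its own, and leaving out each library. A fold against a group at the floor of 6 counts per library is a bound. Scripts were tested on simulated data.

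The genes and gene lists were chosen with earlier results of these data known. Of the interferon gamma list, 1 gene is not reported here. Named beside the members are JUN and FOS, the gene most like each member (mean of at least 1 CPM), and up to 3 called genes per list. The latter have the largest change and no group at the floor, taking genes called in both lines first. Called neighbours, and some that overlap a member, are also named. Other genes named were chosen after their values were seen. The floor covers counting error only, because PCR duplicates are not separate molecules.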

Additional observations from a re-analysis of the deposited data

Results flagged for a closer look

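For 5 of the 9 tested genes the response to doxycycline differed between the lines in the interaction test of edgeR, with values given as TC71 minus EW8 on the log2 scale. CD274 differed by 2.74 ± 0.58 (SE, adjusted p = 0.00225) and L1CAM by 4.0 ± 0.30 (adjusted p = 2.89e-08). The lines differed in CD274 after doxycycline and in L1CAM under vehicle. CD47 differed by 0.56 ± 0.10 (adjusted p = 0.000406). PVR differed by 0.34 ± 0.09 (adjusted p = 0.0156), which failed the test under 6 of 18 alternatives. These were at least 10 counts in every library (0.23, adjusted p = 0.0819) and leaving out EW8 vehicle replicate 3 (0.23, adjusted p = 0.178), TC71 vehicle replicate 1, the library that stood apart (0.19, adjusted p = 0.142), or any of the 3 TC71 doxycycline libraries (0.21 to 0.27, adjusted p = 0.107 to 0.195). NT5E differed in the other direction, by -1.41 ± 0.33 (adjusted p = 0.00492), with 6 to 12 counts in the EW8 vehicle libraries on which its fold rests. Of all tested genes, 12.2% had a larger and 7.07% a smaller response in TC71 at the same adjusted p with no fold limit. Groups of 3 libraries were too small for a test of single outlying libraries.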

How the results depend on the processing

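No direction of a called change turned under any alternative run. With at least 10 counts in every library, 6 members remained testable. The number called higher was then 1 in EW8 (4 as reported) and 5 in TC71 (8 as reported), beside 8.57% and 9.3% of the 14647 genes tested under that filter. Of the responses, 1 was called larger and 0 smaller in TC71, where 2 and 1 were reported; in vehicle 0 genes were called higher in TC71, and after doxycycline 1 was higher and 0 lower. That filter removes genes that are near 0 in vehicle. With no fold limit, 7 were called higher in EW8, 4 responses were larger in TC71, 3 genes were higher and 2 lower in TC71 under vehicle, and 5 were higher and 3 lower after doxycycline.

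Leaving out 1 library at a time gave 4 genes called higher in EW8, 6 to 8 in TC71, 2 larger and 1 smaller response, 1 higher and 1 lower in vehicle, and 2 to 3 higher and 1 lower after doxycycline. The replicate block called 4 in EW8 and 7 in TC71, where ICAM1 was lost (1.28, adjusted p = 0.0523), and changed no other call. The shared replicate numbers did not pair the libraries: correlations of same-numbered deviations ran from -0.028 to 0.018. ICAM1 in TC71 was also lost with library size alone (1.13, adjusted p = 0.051) and with no filter (1.22, adjusted p = 0.063), and ranged from 0.81 to 1.68.

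Signs turned only for values that were not called. The CD274 difference in vehicle was -0.51 without TC71 vehicle replicate 2 and up to 0.58 with another library left out. The CD276 difference in response was -0.02 with median-ratio size factors and with DESeq2, -0.01 with library size alone and -0.08 with at least 10 counts. With 1 library left out it ran from -0.13 to 0.07, with values of -0.01, -0.02, -0.04, -0.07, -0.09 and -0.13 below 0. NECTIN2 in TC71 was -0.02 with library size alone and -0.01 without TC71 doxycycline replicate 2, with 0.08 as the highest value with a library left out. The causes were not tested. Depth limits CD274, NT5E and PDCD1LG2 in vehicle, ICAM1 throughout, and changes of VCAM1 that stay within the floor.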
